A study of Mus musculus with 72 samples.

Results

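Expression of 10 genes of the endoplasmic reticulum (ER) folding machinery and the unfolded protein response was followed through testis, liver and ovary of IVF mice and naturally conceived controls (naturals). The genes, selected by symbol from the 37108 gene symbols of the count tables, were Hsp90b1, Hspa5, Calr, Canx, Pdia3, Pdia4, Pdia6, Xbp1, Atf4 and Ddit3. They were chosen because Hsp90b1 is among the top changes in liver of F2 males, so the values in that tissue chose the group and are given there as a description without a test. All 10 passed the filter on low counts in all 7 comparisons.

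The series holds 72 RNA-Seq libraries, 32 naturals and 40 IVF. F1 naturals came from CF-1 females mated with SJL/B6 males, whereas F1 IVF offspring came from eggs of superovulated CF-1 females fertilized in vitro with SJL/B6 sperm, cultured to blastocysts and transferred to pseudopregnant females. F1 testes were collected at E18.5 (4 naturals, 6 IVF), 12 weeks (5 and 5) and 39 weeks (4 and 6), and the adult F1 were delivered by C-section and fostered. F2 mice, sampled at 12 weeks, were sired by natural or IVF F1 males on CF-1 females and were born naturally, so IVF in F2 denotes the conception of the father. The F2 groups were testis (5 naturals, 7 IVF), male liver (5 and 5), female liver (5 and 6) and ovary (4 and 5).

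Proteins destined for secretion or for membranes fold in the ER. HSP90B1 (GRP94) and HSPA5 (BiP) bind unfolded chains in the lumen, calreticulin and calnexin hold glycoproteins by their sugars, and the protein disulfide isomerases PDIA3, PDIA4 and PDIA6 form and rearrange disulfide bonds. When unfolded protein accumulates, the sensors IRE1, PERK and ATF6 act through the transcription factors XBP1, ATF4 and CHOP (encoded by Ddit3), and cleaved ATF6 and XBP1 raise chaperone transcription at promoter elements such as the ER stress response element (ERSE). Hepatocytes secrete most plasma proteins and keep abundant ER.

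The promoters of these genes are shown first, since 5 of them share the ERSE. The ERSE is known from chaperone genes of this response, and the genes were picked for that role. Its presence here is therefore a description and no independent support. RefSeq promoters on GRCm38.p6 (250 bases before to 50 bases after the start) were found for all 10 genes and searched on both strands. The ERSE, written CCAAT, 9 bases of any kind and CCACG, occurred in 39 of 32851 promoters (0.119%), and 5 of the 10 genes held it: Hsp90b1 (with 2 matches), Hspa5, Pdia6, Calr and Canx. In the matches below, the capitals mark CCAAT and CCACG.
Hsp90b1, chr10:86705638-86705656, 212 to 194 bases before the start, read on the gene strand: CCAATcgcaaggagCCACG
Hsp90b1, chr10:86705533-86705551, 107 to 89 bases before the start, read on the opposite strand: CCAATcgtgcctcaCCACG
Hspa5, chr2:34772025-34772043, 65 to 47 bases before the start, read on the gene strand: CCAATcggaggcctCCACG
Pdia6, chr12:17266491-17266509, 98 to 80 bases before the start, read on the gene strand: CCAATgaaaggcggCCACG
Calr, chr8:84847075-84847093, 162 to 144 bases before the start, read on the opposite strand: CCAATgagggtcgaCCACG
Canx, chr11:50325800-50325818, 145 to 127 bases before the start, read on the gene strand: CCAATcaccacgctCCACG

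The stretches upstream of the 2 lumenal chaperones are printed in full on the strand of each gene, because Hsp90b1 held a pair of matches and Hspa5 carried another stress motif beside its ERSE. Capitals mark the ERSE letters (as CGTGG and ATTGG where the match lies on the opposite strand) and, in Hspa5, TGACGTG, the core of the unfolded protein response element (UPRE).
Hsp90b1, chr10:86705445-86705694, minus strand: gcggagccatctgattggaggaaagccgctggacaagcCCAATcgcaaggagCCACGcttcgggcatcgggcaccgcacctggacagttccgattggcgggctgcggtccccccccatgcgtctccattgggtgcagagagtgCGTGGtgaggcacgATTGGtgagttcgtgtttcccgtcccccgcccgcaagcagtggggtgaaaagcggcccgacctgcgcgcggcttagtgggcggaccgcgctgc
Hspa5, chr2:34771840-34772089, plus strand: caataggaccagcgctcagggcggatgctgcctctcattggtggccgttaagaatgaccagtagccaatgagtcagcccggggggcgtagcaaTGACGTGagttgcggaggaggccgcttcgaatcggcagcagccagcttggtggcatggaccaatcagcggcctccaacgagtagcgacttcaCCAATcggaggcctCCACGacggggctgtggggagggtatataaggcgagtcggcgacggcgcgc

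TGACGTG occurred in 2.01% of all promoters, and of the 10 genes in that of Hspa5. ERSE-II (ATTGG, 1 base of any kind and CCACG) occurred in 0.0365% of promoters and TGATGNAA, a core of the element bound by ATF4 with C/EBP factors, in 3.97%. Neither set of letters was found in this window of any of the 10 genes.

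Libraries ranged from 543745 to 90441392 counts. The shallowest were male liver IVF 3 (543745) and IVF 2 (2137355), in which 10 genes took 43.5% and 37.2% of all counts. In both livers the libraries also differed by GC content: the rank correlation across genes of a library's level, relative to the other libraries of that tissue, with transcript GC content was 0.435 to 0.515 in male naturals and -0.482 to -0.110 in male IVF, and -0.623 to -0.322 in female naturals and 0.323 to 0.647 in female IVF. The groups were also apart in F1 testis at E18.5 (0.073 to 0.261 in naturals, -0.246 to -0.091 in IVF) and 39 weeks (-0.013 to 0.339 and -0.306 to -0.028). Totals at E18.5 were 2904727 to 4869139 counts in naturals and 8500054 to 15745480 in IVF. Those at 39 weeks were 11438213 to 12705316 and 14033176 to 23318391. No label ties libraries to a processing batch, so library composition and conception cannot be told apart in liver or in these testes. Defining markers of the labelled tissues were present: summed spermatid markers reached 9931 to 25830 CPM (counts scaled to library size) in adult testes, all 7 hepatocyte markers had counts in both livers, and summed oocyte markers lay between 164.4 and 292.5 CPM in ovary. Spermatid markers also summed to 0 to 110.6 CPM in male liver naturals, highest in natural 5 and next at 74.54. They summed to 0 to 3.507 CPM in male liver IVF and at most 0.6096 CPM in female liver naturals. Libraries were treated as separate samples, and p-values measure the spread between them. The paper counted F2 pups from fewer breeding pairs per group than most F2 groups here have libraries. F2 libraries may thus share a sire or litter, and their p-values do not measure the spread between sires. A pair of naturals at 39 weeks and 2 pairs in F2 testis were so alike that they may be repeat libraries, and results there are also given with each pair counted as 1 sample.

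In liver of F2 males, the chaperones were higher in IVF than in naturals, and Atf4 was lower. Levels in this paragraph and the following ones are CPM after scaling by the trimmed mean of M-values (TMM) within each tissue. Hsp90b1 was at 769, 648, 733, 791 and 813 CPM in the 5 naturals and at 1826, 2080, 2497, 2184 and 2035 CPM in the 5 IVF libraries. The groups lay far apart, with a mean of 751 ± 64.7 against 2125 ± 246 (SD, n = 5 and 5), a log2 difference (IVF minus natural) of 1.5 with an SE of 0.16. Hspa5 was at 559, 382, 387, 496 and 625 CPM in naturals and at 656, 639, 1024, 952 and 668 CPM in IVF (log2 difference 0.68). For Hspa5 the lowest IVF library was only just above the highest natural.

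The lectin chaperones were also higher in IVF males. Calr was at 1058, 918, 989, 934 and 1072 CPM in naturals and 1342, 1480, 2767, 1638 and 1634 CPM in IVF (log2 difference 0.83). IVF 3, the shallowest library, held the highest Calr value. Canx, the membrane-bound partner of calreticulin, was at 363, 366, 340, 385 and 371 CPM in naturals and 541, 608, 530, 551 and 460 CPM in IVF (0.56). The groups did not overlap for either gene.

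Among the disulfide isomerases, Pdia3 and Pdia4 followed the same direction and Pdia6 did not separate the groups. Pdia3, which works with the lectin chaperones on glycoproteins, was at 402, 363, 395, 366 and 413 CPM in naturals and 621, 595, 723, 740 and 734 CPM in IVF (log2 difference 0.82). Pdia4 was at 173, 159, 174, 178 and 182 CPM in naturals and 292, 211, 419, 361 and 275 CPM in IVF (0.84), with the groups apart but IVF much more spread. Pdia6 ranged from 258 to 365 CPM in naturals and from 260 to 443 CPM in IVF (0.20), so the groups overlapped.

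The transcription factors took the other direction or none. Atf4, the factor translated when PERK is active, was at 97.9, 94.8, 99.1, 83.6 and 83.0 CPM in naturals and 49.2, 49.1, 82.0, 50.1 and 67.6 CPM in IVF (log2 difference -0.67). All IVF libraries were below all naturals, IVF 3 by a small margin. Xbp1 ranged from 180 to 260 CPM in naturals and from 112 to 183 CPM in IVF (-0.44), with a slight overlap. Ddit3 was low, at 3.97 to 5.19 CPM in naturals and 3.31 to 19.3 CPM in IVF, where the highest value rested on 8 counts in IVF 3.

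In male liver 7 of the 10 genes were past an adjusted p of 0.05 (6 higher, 1 lower) where 34.4% of 11973 genes were (16.1% higher, 18.4% lower), a count that the choice of genes rests on. The median log2 difference of the 10 genes was 0.621 against -0.011 over all genes tested. Without IVF 2 and IVF 3 the log2 difference of Hsp90b1 was 1.44. When a smooth trend of level on GC content was removed from each library it was 1.01, and those of Hspa5, Canx and Atf4 were 0.41, 0.08 and -0.05.

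**Figure D1:**
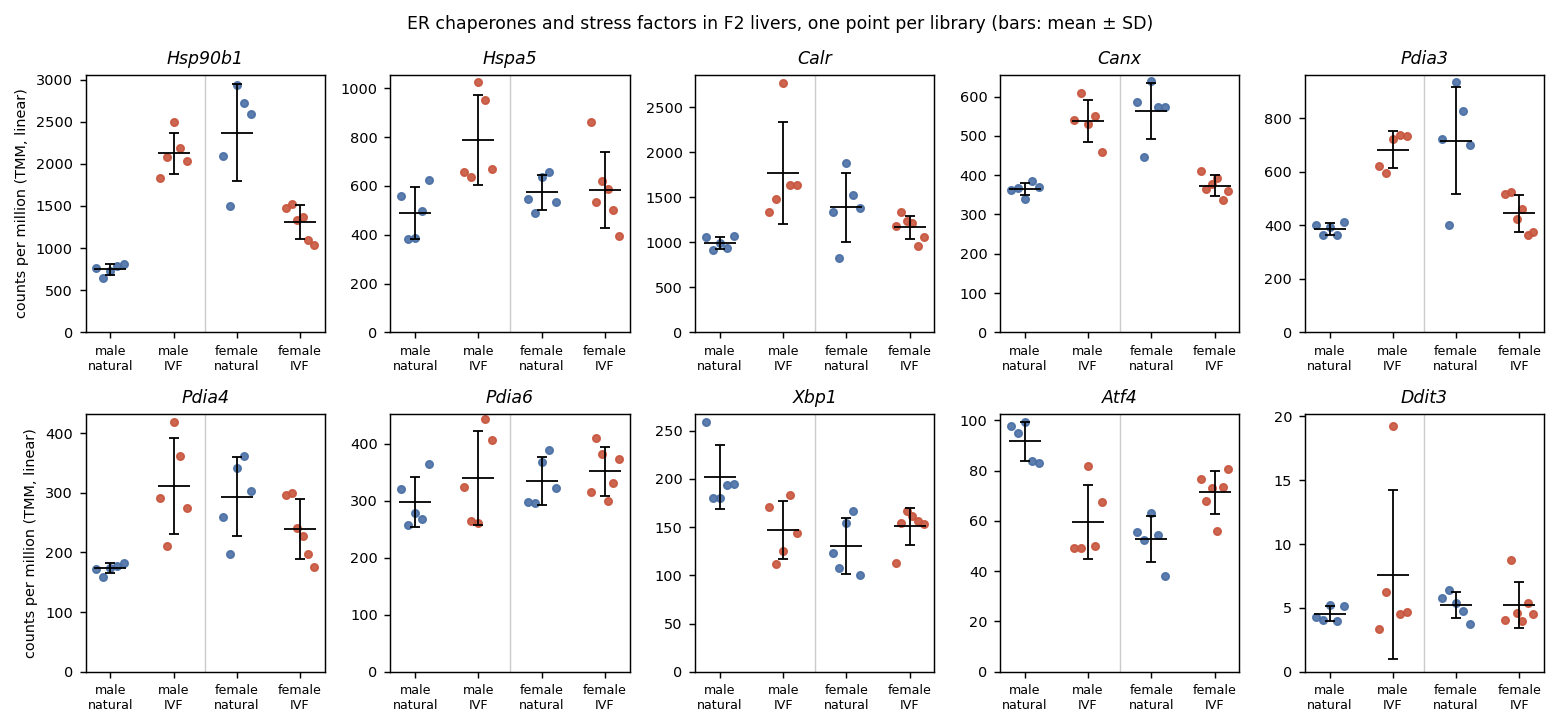
Each point is the TMM-scaled CPM of a gene in 1 F2 liver library (linear axis from 0), with the mean and SD of each group as bars, for male naturals, male IVF, female naturals and female IVF from left to right. Hsp90b1 is at 648 to 813 CPM in male naturals and 1826 to 2497 CPM in male IVF, but at 1505 to 2940 CPM in female naturals and 1033 to 1521 CPM in female IVF.

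In liver of F2 females, Hsp90b1, Pdia3 and Canx were downregulated in IVF and Atf4 was upregulated, whereas the other 6 genes did not pass the test. Hsp90b1 was at 2093, 1505, 2940, 2720 and 2593 CPM in the 5 naturals, and the 6 IVF libraries had a lowest value of 1033, a median of 1356 and a highest of 1521 CPM. The groups overlapped only through natural 2, whose level was below the highest IVF library. The means were 2370 ± 575 and 1307 ± 200 (SD, n = 5 and 6), a log2 difference of -0.86 with an SE of 0.18 (adjusted p = 0.000849 in edgeR's quasi-likelihood test, with p-values adjusted after Benjamini and Hochberg across the whole table, as for every adjusted p below). Hspa5, the other lumenal chaperone, was at 489 to 658 CPM in naturals and 396 to 862 CPM in IVF, with a log2 difference of 0.02 (95% interval -0.34 to 0.39).

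For Canx the female groups did not overlap. It was at 587, 446, 641, 573 and 574 CPM in naturals, against a lowest value of 336, a median of 370 and a highest of 410 CPM in IVF, and fell by 0.60 on the log2 scale (SE 0.13, adjusted p = 0.00101 in the edgeR quasi-likelihood test). Calr was at 828 to 1879 CPM in naturals and 964 to 1332 CPM in IVF. Its log2 difference of -0.25 did not pass the test, but reached -0.37 (edgeR adjusted p = 0.0468) when natural 2, the library with the lowest Calr level, was left out.

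Pdia3 was at 722, 401, 936, 827 and 702 CPM in naturals, with a lowest value of 365, a median of 443 and a highest of 526 CPM in IVF, and fell by 0.69 on the log2 scale (SE 0.19, adjusted p = 0.00617 in the edgeR quasi-likelihood test). Natural 2 was again within the IVF range. Pdia4 was at 198 to 362 CPM in naturals and 176 to 299 CPM in IVF (log2 difference -0.29, 95% interval -0.67 to 0.09). Pdia6 was at 297 to 390 and 299.9 to 410 CPM (0.07, -0.21 to 0.35).

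Atf4 was at 55.5, 52.5, 63.2, 54.3 and 38.1 CPM in female naturals, with a lowest value of 56.1, a median of 73.3 and a highest of 80.7 CPM in IVF, a rise of 0.44 on the log2 scale (SE 0.14, adjusted p = 0.0154 in the edgeR quasi-likelihood test). A single natural, natural 3, lay within the IVF range. Xbp1 was at 100.2 to 167 CPM in naturals and 113 to 167 CPM in IVF (log2 difference 0.21, 95% interval -0.12 to 0.54). Ddit3 was at 3.75 to 6.43 and 3.96 to 8.72 CPM (0.01, -0.52 to 0.55).

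The 4 of 10 genes called in female liver (3 lower, 1 higher) stand beside 49% of 12525 genes called in that tissue, 25.4% higher and 23.6% lower. The share of these genes was thus near the background. Their median log2 difference was -0.12 against -0.011 over all genes. After the GC trend of each library was removed none of the 4 passed in the edgeR test: the log2 differences were -0.26 for Hsp90b1 (adjusted p = 0.218), -0.46 for Pdia3 (0.0681), -0.01 for Canx (0.975) and -0.25 for Atf4 (0.178), which changed sign. With the mapping rate of each library as a covariate none passed either, and the log2 differences were -0.50, -0.10, -0.33 and 0.59 in the same order. Over all 12525 genes, 3303 were called with the GC trend removed and 1331 with the mapping rate.

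The male and female livers are set side by side in the plot of differences, but the difference between the sexes was not tested. The female comparison used other mice and other libraries than the male one. Hsp90b1, Pdia3 and Canx were higher in IVF males and lower in IVF females, and Atf4 lower in males and higher in females.

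**Figure D2:**
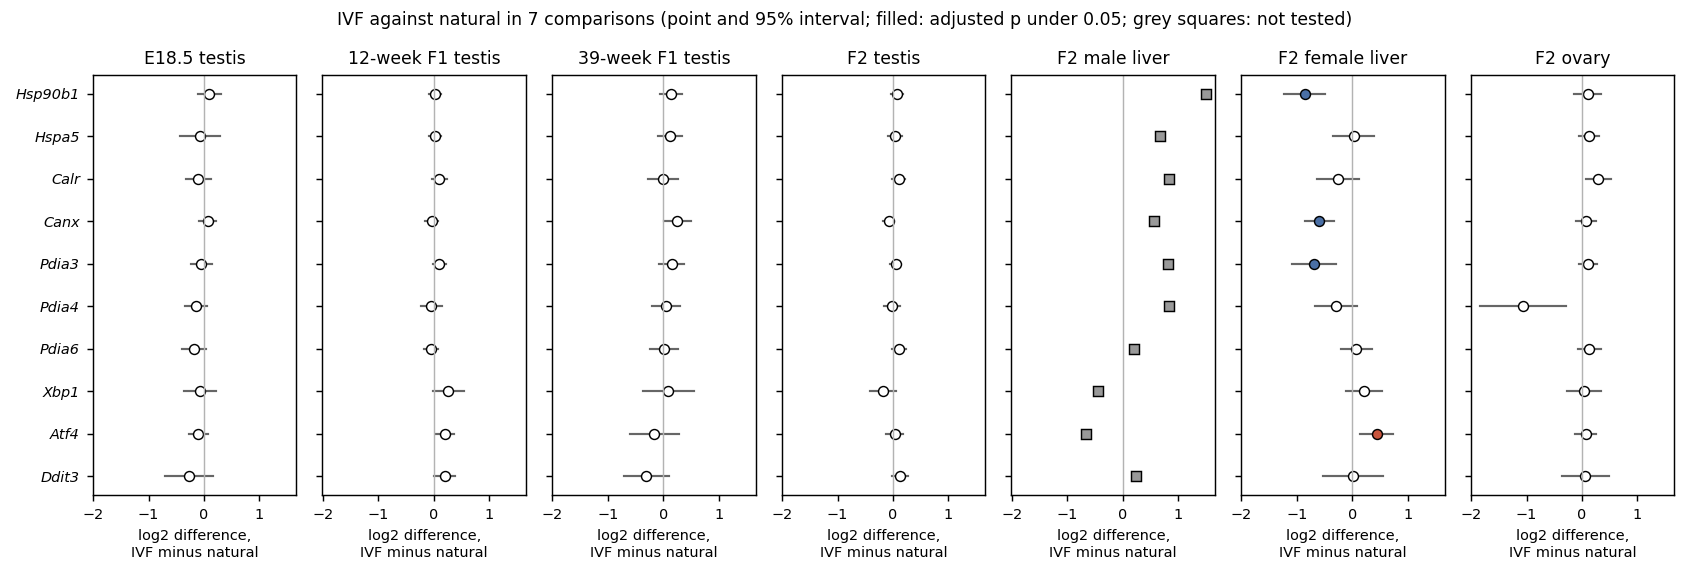
Log2 difference (IVF minus natural) of each gene in the 7 comparisons, with 95% intervals as lines. Filled circles passed an adjusted p of 0.05 in the edgeR test (blue lower, red higher in IVF), open circles did not, and the grey squares of F2 male liver, from -0.67 for Atf4 to 1.5 for Hsp90b1, were not tested.

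The difference of a gene in either liver varied with the GC content of its transcript. Hsp90b1 and Canx had the lowest GC content of the 10 (42.1% and 42.2%), followed by Hspa5 and Ddit3 (both 45.6%), Pdia3 (46.9%), Pdia4 (47.6%), Pdia6 (48.9%), Calr (50%), Xbp1 (53.0%) and Atf4 (55.5%). Across these 10 genes, which share libraries and are not replicates, Pearson's r between log2 difference and GC content was -0.79 in males and 0.78 in females, and -0.39 and -0.29 once the GC trend was removed. The same slope ran through all genes tested. In female liver the median log2 difference was -0.6 for transcripts under 45% GC, of which 55% were called lower, and 0.727 for those over 52% GC, of which 55.4% were called higher. In male liver the corresponding medians were 0.448 and -0.602.

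**Figure D3:**
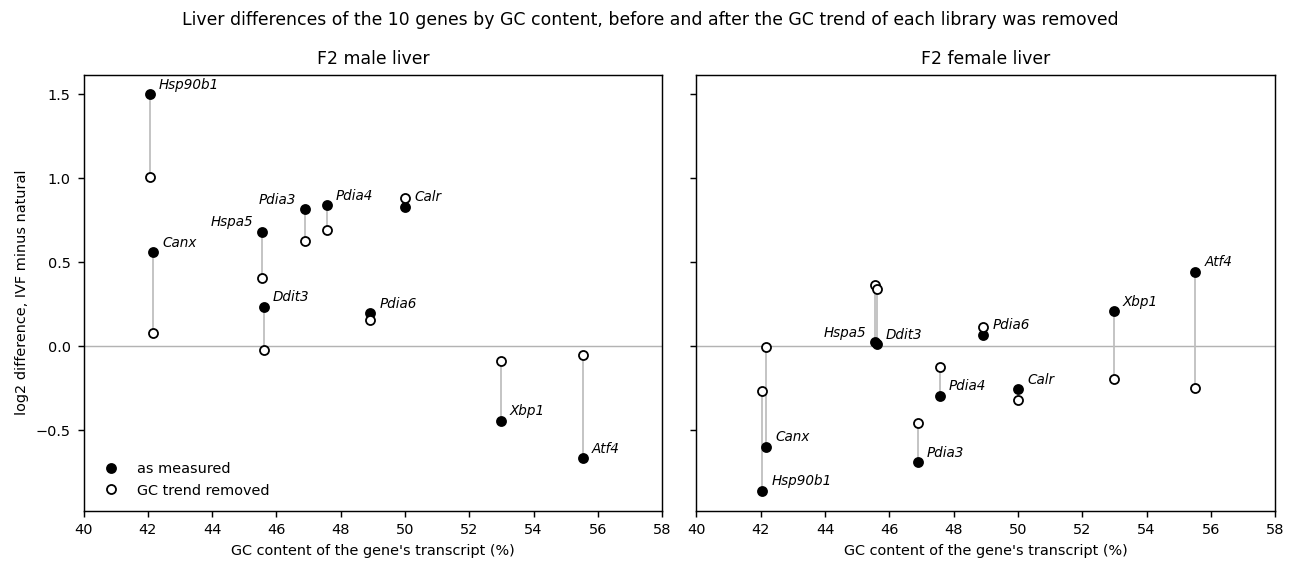
Log2 difference (IVF minus natural) of each of the 10 genes in F2 male and female liver against the GC content of its transcript (percent), as measured (filled) and after the GC trend of each library was removed (open), with a line joining the values of a gene. Hsp90b1 moves from 1.5 to 1.01 in males and from -0.86 to -0.26 in females, while Calr stays near its first value in both, at 0.83 and 0.89 in males and -0.25 and -0.32 in females.

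Summed markers of some liver cell types also moved with the groups. The summed level of 7 hepatocyte markers was 74710 to 100700 CPM in male naturals and 94270 to 145300 CPM in male IVF, and 171700 to 248100 CPM in female naturals and 110000 to 127900 CPM in female IVF, where 5 of 7 were called lower. The 3 red blood cell markers summed to 257.8 to 461 CPM in male naturals and 410.4 to 828.5 CPM in male IVF, and to 440.3 to 744.3 and 144 to 343.7 CPM in the female groups. Of these 3, 1 was past the threshold higher and 1 lower in males, and 2 were called lower in females. Markers of plasma cells, another cell type rich in ER, summed the other way. The 5 markers summed to 155.4 to 204.5 CPM in male naturals and 43.39 to 93.48 CPM in male IVF (Tnfrsf17 at 0 throughout). In females they summed to 77.41 to 136.4 CPM in naturals and 163.9 to 362.1 CPM in IVF. Only 2 of them passed the filter in each liver, with 1 past the threshold lower in males and 1 higher in females. These sums thus rest on few genes and need not follow plasma cell number. Stellate cell and fibroblast markers (5 genes) summed to 94.08 to 155.3 CPM in male naturals and 140 to 209 CPM in male IVF, where 1 was past the threshold higher and 1 lower. In the female groups they summed to 225.7 to 256.1 and 97.72 to 178.9 CPM, and 2 were called lower. Markers of the pancreatic acinar cell, which is also rich in ER, were near 0 in males (at most 0.8413 CPM in naturals and 0.6012 in IVF) and summed to 0 to 0.2824 CPM in female naturals and 0.6061 to 21.83 CPM in female IVF, where the 1 marker tested was called higher. Macrophage and Kupffer cell markers overlapped between the groups, at 105 to 181.6 and 109.5 to 207.1 CPM in males and 100.6 to 204.6 and 128.5 to 236.3 CPM in females. Endothelial markers also overlapped, at 43.56 to 65.52 and 47.69 to 77.45 CPM in males and 39.59 to 122.5 and 49.61 to 68.9 CPM in females. The part of these markers in the liver differences was not tested, and in whole tissue fewer cells of a type and less RNA per cell cannot be told apart.

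Beyond the 10 genes, a wider list of 134 ER folding, quality control and stress genes was followed. In female liver 39 of 121 tested were called higher and 25 lower, beside 25.4% and 23.6% of all genes, and the median log2 difference was 0.112 against -0.011. Lumenal chaperones and cochaperones split evenly (6 higher, 6 lower of 23). Of the genes of disulfide formation 5 of 16 were higher (Txndc5, Txndc11, Erp29, Prdx4 and Qsox1) and 5 lower (Erp44, Tmx1, Tmx3, Ero1a and Selenof). In the calnexin cycle and glycan trimming 5 of 7 were higher and none lower. These were Mogs, the glucosidase II subunits Ganab and Prkcsh, the glucose-binding lectin Mlec and the mannosidase Man1b1. Their transcripts were 51.1% to 59.9% GC. Of all genes in female liver, 55.4% of those over 52% GC and 13.8% of those at 45% to 52% GC were called higher.

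In ER-associated degradation 5 of 23 were higher (Syvn1 and Derl1 among them) and 3 lower (Edem3, Herpud2 and Erlec1). Of the stress sensors and their processing 2 of 8 were higher, Atf6b and the RNA ligase Rtcb that joins Xbp1 exons, and 2 lower, the protease Mbtps2 that cleaves ATF6 and Eif2s1, the substrate of PERK. The other transcription factors had 4 of 8 higher (Atf5, Cebpb, Creb3 and Creb3l3) and 1 lower (Creb3l1). Of the ATF4 and CHOP targets 7 of 15 were higher and none lower, and the transcripts of these 7 were 49.8% to 65.2% GC. The translocon and signal peptidase had 5 higher and 7 lower of 17, and of the germ-cell chaperones 1 of 4, Pdilt, was lower. Apart from the genes described below, those named here by group were chosen after their values were seen.

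The wider genes with the smallest adjusted p among those higher in female IVF were Mogs (log2 difference 1.57, adjusted p = 1.36e-05), the glucosidase that makes the first cut in N-glycan trimming, Qsox1 (1.37, 2.79e-05), a thiol oxidase, and Ssr2 (1.48, 3.7e-05), a translocon-associated subunit, all in the edgeR quasi-likelihood test. Among those lower they were Erlec1 (-1.39, 1.33e-05), a lectin of ER-associated degradation, Sec63 (-1.45, 2.02e-05), which recruits HSPA5 to the translocon, and Dnajb9 (-1.08, 2.92e-05), a cochaperone of HSPA5, in the same edgeR test. The transcripts of the first 3 were 55.1% to 59.9% GC and those of the last 3 were 40.4% to 43.5% GC.

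Among known targets of the response in female liver, Hyou1 (log2 difference 0.95, edgeR adjusted p = 0.0032), Sdf2l1 (1.40, 0.0018) and Trib3 (1.61, 0.0005) were upregulated, and Dnajb9 (-1.08, above) was downregulated. Herpud1, which helps to assemble the degradation machinery, differed by 0.00 (adjusted p = 0.991 in edgeR), and Ppp1r15a (GADD34), which restores translation, by 0.60 (edgeR adjusted p = 0.0501). Atf3, a stress-induced transcription factor, differed by 0.20 (edgeR adjusted p = 0.745), and Asns did not pass the filter on low counts. Of 3 further targets, chosen after their values were seen, Dnajc3 was lower (-0.86, edgeR adjusted p = 0.00151), while Creld2 (0.43, 0.118) and Manf (0.07, 0.703) did not pass in edgeR. The sensor genes Ern1, Eif2ak3 and Atf6 differed by 0.00, 0.21 and -0.13 and did not pass. After removal of the GC trend 32 of the 121 wider genes were called, beside 3303 of 12525 genes. With the mapping rate as a covariate 12 were called, beside 1331 of 12525 genes.

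In male liver, where counts of the edgeR fit are given as a description only, 18 of 121 wider genes were past the threshold higher in IVF and 21 lower, near the 16.1% and 18.4% of all genes, with a median log2 difference of 0.004. With the GC trend removed these were 21 higher and 10 lower, where 2393 of 11973 genes were past the threshold. Among all genes of each GC class, more were then higher than lower too (10.4% to 12.6% against 6.12% to 9.44%). Without IVF 2 and IVF 3, the shallowest libraries, they were 30 higher and 20 lower, where 4349 of 12687 genes were past it. Dnajc3 (log2 difference 1.54), Sec62 (1.40) and Erlec1 (1.31) ranked first among those higher, and Creld1 (-1.43), Qsox1 (-1.20) and Syvn1 (-1.05), the ubiquitin ligase of ER-associated degradation, among those lower. Of the known targets, Herpud1 was past the threshold higher (0.94). Dnajb9, Hyou1, Trib3, Ppp1r15a, Sdf2l1 and Asns, which were not past it, differed by 0.83, 0.03, -0.25, -0.51, -0.60 and -0.97, and Atf3 did not pass the filter on low counts. Of 3 others chosen after their values were seen, Derl3 (2.28), Creld2 (1.12) and Manf (0.79) were past it and higher. All of the ranked genes were called on the opposite side in females. There Dnajc3 (-0.86), Sec62 (-1.31) and Erlec1 (-1.39) were lower, and Creld1 (1.24), Qsox1 (1.37) and Syvn1 (1.44) higher. The transcripts of the former were 40.4% to 43.2% GC and those of the latter 55.1% to 58.2% GC.

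In the testes none of the 10 genes passed the test at any age or in either generation, and most differences were small. At E18.5 no gene was called (background 1.17% of 15406 genes), 0 reached an unadjusted p under 0.05 in edgeR, where 17.7% of all genes did, and DESeq2 also called 0 (6.82% of all genes). The 181 calls behind this background were 8 without natural 4 or without IVF 6 and 379 without natural 1, 2 with the replicate block and 1 with the GC trend removed. Hsp90b1 was at 1571, 1297, 1433 and 1381 CPM in the 4 naturals and at 1206 to 1788 CPM (median 1485) in the 6 IVF libraries, with overlapping groups and a log2 difference of 0.10 (95% interval -0.10 to 0.30). The largest shifts were in Ddit3 (-0.27, SE 0.20) and Pdia6 (-0.18, SE 0.10). Natural 1 had the highest Hsp90b1, Hspa5, Calr, Canx, Pdia3, Pdia4, Pdia6 and Xbp1 of the 4 naturals. Hepatocyte markers summed to 478.1 CPM in this library, 12.65 to 22.77 CPM in the other 3 naturals and 14.24 to 37.71 CPM in IVF. It was also the highest natural for summed Sertoli cell (2211 CPM, next 1789), granulosa and luteal (1034, next 903.5), endothelial (555.3, next 449.9) and macrophage markers (32.82, next 26.88). For the other marker sets it was not the highest. The part of these markers in its chaperone levels was not tested.

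At 12 weeks in F1 testis 0 of the 10 genes were called by edgeR (background 0.746% of 20113 genes) and 0 by DESeq2 (2.92% of all genes), and 2 reached an unadjusted p under 0.05, as did 12.9% of all genes. The 150 calls behind this background were 25 to 350 when 1 library was left out (25 without IVF 4, 350 without IVF 1) and 22 with the replicate block. Atf4 was at 32.0, 31.7, 30.3, 35.1 and 33.7 CPM in naturals and at 34.8, 37.2, 38.0, 38.5 and 39.2 CPM in IVF, so that the groups overlapped by a single pair of libraries (log2 difference 0.21, SE 0.08, adjusted p = 0.269 in edgeR). Ddit3 was at 44.7, 46.2, 37.8, 44.4 and 45.9 CPM in naturals and at 53.4, 47.9, 41.7, 57.6 and 51.4 CPM in IVF (0.20, SE 0.09, edgeR adjusted p = 0.356). The other 8 genes differed by -0.05 to 0.27.

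At 39 weeks 0 of the 10 genes were called by edgeR (background 0.00996% of 20083 genes) and 0 by DESeq2 (1.16% of all genes), and Canx alone reached an unadjusted p under 0.05, as did 10.5% of all genes. Canx was at 139, 138, 181 and 175 CPM in naturals and at 168 to 204 CPM (median 192) in IVF (log2 difference 0.26, SE 0.11, edgeR adjusted p = 0.455). Ddit3 was at 86.4, 89.9, 49.5 and 45.9 CPM in the 4 naturals and at 43.6 to 62.8 CPM (median 56.1) in IVF (-0.31, SE 0.19, edgeR adjusted p = 0.603). Naturals 1 and 2 were thus above every IVF library for Ddit3, and naturals 3 and 4 within the IVF range. Atf4 was at 47.7, 46.2, 34.4 and 20.9 CPM in naturals and 27.4 to 44.0 CPM in IVF. Naturals 1 and 2 also had the closest counts of any natural pair at this age and a GC correlation of 0.319 and 0.339, against -0.306 to 0.024 in the other 39-week libraries. When their counts were summed into 1 library, 0 of the 10 genes were called (background 0.00474%), and the log2 differences were -0.18 for Ddit3 (edgeR adjusted p = 0.848) and 0.18 for Canx (edgeR adjusted p = 0.721).

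In F2 testis 0 of the 10 genes were called by edgeR (background 1.61% of 21454 genes), 0 reached an unadjusted p under 0.05 (13.9% of all genes) and 0 were called by DESeq2 (3.02% of all genes). The 345 calls behind this background were 134 (0.625%) with the close pairs summed, and leaving out 1 library gave 176 (without natural 1) to 436 (without IVF 2). Hsp90b1 was at 596 to 689 CPM in naturals and 606 to 764 CPM in IVF, a log2 difference of 0.07 (95% interval -0.04 to 0.19), or 0.10 (SE 0.07) with each close pair as 1 sample, where 0 of the 10 genes were called either. Xbp1 (-0.18) and Ddit3 (0.13) were the largest of the 10 differences. The median log2 difference of the 10 genes in the testes was -0.085 at E18.5, 0.061 at 12 weeks, 0.071 at 39 weeks and 0.042 in F2, against medians of all genes from -0.004 to 0.01.

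Chaperones that serve sperm formation were abundant in the adult testis and did not pass the test there. At 12 weeks Hspa2, an HSP70 of meiotic and postmeiotic germ cells, was at 1799 ± 68.3 CPM in naturals and 1825 ± 156 CPM in IVF (SD, n = 5 and 5). Hspa1l, the calnexin relative Clgn, the disulfide isomerase relative Pdilt and the calreticulin relative Calr3 were at 936, 626, 114 and 82.3 CPM in naturals. Of the wider list, Sec16a, which organizes ER exit sites, was the only gene called at 12 weeks (1 of 124, beside 0.746% of all genes), from 193 ± 4.62 CPM in naturals to 160 ± 3.96 CPM in IVF, a log2 difference of -0.27 (SE 0.05, adjusted p = 0.0243 in edgeR). No wider gene was called with the replicate block, for changes over 1.5-fold, or without natural 3, natural 4, natural 5, IVF 2 or IVF 4. In the other testes 0 of the wider genes were called by edgeR, with 33 of 129 at E18.5, 20 of 126 at 39 weeks and 16 of 128 in F2 at an unadjusted p under 0.05, where 17.7%, 10.5% and 13.9% of all genes were. DESeq2 called 13, 1 and 2 of them, and 6.82%, 1.16% and 3.02% of all genes.

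In F2 ovary 0 of the 10 genes were called by edgeR, as were 0% of the 16502 genes tested, and DESeq2 called 0 of the 10 (1.02% of all genes). Pdia4 was at 725, 259, 241 and 738 CPM in the 4 naturals and at 250, 248, 210, 232 and 232 CPM in the 5 IVF libraries. Naturals 1 and 4 stood far above all other libraries, while naturals 2 and 3 were close to IVF. The log2 difference was -1.07 with an SE of 0.34 (unadjusted p = 0.0125, adjusted p = 0.414 in edgeR's model). Calr was at 1264, 1414, 1504 and 1580 CPM in naturals and 1768, 1568, 1908, 1959 and 1644 CPM in IVF (0.30, SE 0.10, edgeR adjusted p = 0.42), and only IVF 2 lay below the highest natural. The other 8 genes differed by 0.04 to 0.13, and 0 of 129 wider genes were called by edgeR (22 at an unadjusted p under 0.05, as were 10.6% of all genes, and 2 by DESeq2).

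**Figure D4:**
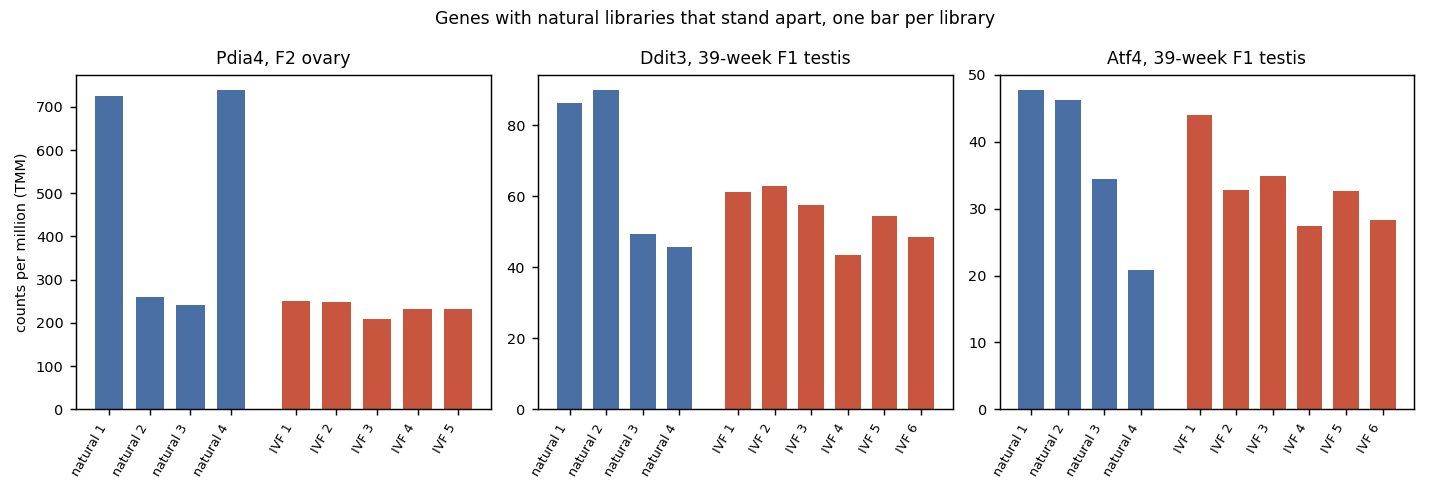
TMM-scaled CPM of Pdia4 in F2 ovary and of Ddit3 and Atf4 in 39-week F1 testis, 1 bar per library (linear axes from 0, naturals blue, IVF red). Pdia4 is at 725 and 738 CPM in ovary naturals 1 and 4 and at 210 to 259 CPM in all other libraries, and Ddit3 is at 86.4 and 89.9 CPM in 39-week naturals 1 and 2 and at 43.6 to 62.8 CPM in the rest.

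To compare tissues, levels in the naturals were expressed per kilobase of exon (RPKM) after TMM scaling over all libraries, so these values are on another scale than the CPM above. Hsp90b1 was highest in female liver (935.5 ± 261 RPKM, n = 5) and next in male liver (366.8 ± 63.2, n = 5), with ranges apart. The ovary (198.4), E18.5 testis (193.8) and the adult testes (169.0 to 174.9) followed with overlapping neighbours. With library totals in place of TMM, E18.5 testis and ovary (365.4 and 293.8 RPKM) came before male liver (225.6). Hspa5 varied least, from 142.9 RPKM in E18.5 testis to 228.9 in male liver, and only female liver and ovary were neighbours with ranges apart. With library totals the order of Hspa5 turned over: E18.5 testis (268.9 RPKM) and ovary (248.4) were highest, and male and female liver (140.7 and 140.4) lowest.

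Calr and Canx were highest in female liver (759.6 and 190.9 RPKM) and male liver (676.3 and 153.1 RPKM), whose ranges overlapped. Calr was lowest in E18.5 testis (258.8 RPKM) and Canx in 39-week testis (36.79 RPKM). With library totals ovary was first for both (545.1 and 144.2 RPKM), and for Calr E18.5 testis (487.7) was above male liver (418.1) and below female liver (499), so the order of liver, ovary and E18.5 testis depends on the scaling. For Canx the totals gave 138.6 RPKM in E18.5 testis, 124.5 in female liver and 94.21 in male liver. Pdia3 ran from 359.2 RPKM in female liver to 93.45 in 39-week testis. Pdia4 showed a larger step, from 142.1 to 194.3 RPKM in livers and ovary and 53.1 in E18.5 testis to 17.83 to 18.88 in the adult testes. Pdia6 was at 155.9 and 142.6 RPKM in male and female liver and at 37.61 to 55.55 elsewhere. With library totals ovary and E18.5 testis came before male liver for Pdia3 (224.5 and 214.8 against 149.5 RPKM) and Pdia4 (221.5 and 99.98 against 87.51 RPKM), while the livers stayed first for Pdia6.

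The transcription factors had different orders. Xbp1 was at 122.1 RPKM in male liver, 63.01 in female liver, 27.41 in ovary and 22.03 in E18.5 testis, and at only 3.62 to 3.838 in the adult testes. With library totals female liver (41.44 RPKM), E18.5 testis (41.36) and ovary (40.41) were alike for Xbp1, below male liver (75.35). Atf4 was at 75.88 RPKM in male liver, 45.09 in ovary, 35.01 in female liver and 28.77 in E18.5 testis, and at 14.59 to 17.32 in the adult testes. With library totals Atf4 was at 66.57 RPKM in ovary and 54.51 in E18.5 testis, above male liver (47.04) and female liver (23.05). Ddit3 was highest in the adult testes: 43.44, 28.31 and 27.02 RPKM in 39-week, F2 and 12-week testis, which overlapped as neighbours (38.98 at 39 weeks with naturals 1 and 2 counted as 1 sample), 12.97 in ovary, 5.156 and 4.803 in the livers and 3.924 in E18.5 testis. The fetal and adult testes are at opposite ends for Ddit3, and with library totals in place of TMM E18.5 testis (7.412 RPKM) moved above the livers (3.199 and 3.142).

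**Figure D5:**
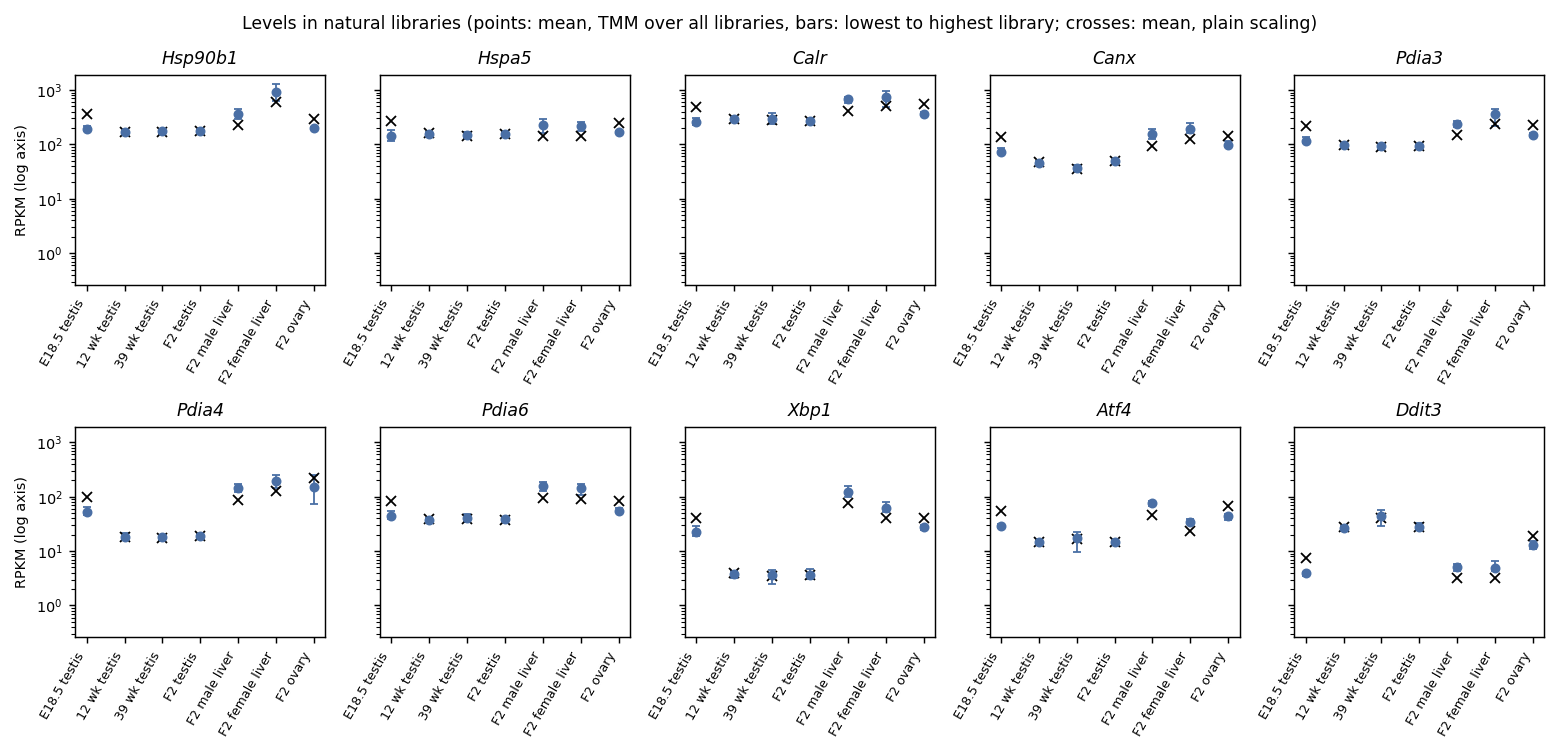
Mean level of each gene in the naturals of the 7 tissues and ages (RPKM, log axis), with TMM over all libraries as points, the lowest to highest library as bars and means with plain library totals as crosses. Xbp1 is at 3.62 to 3.838 RPKM in the adult testes and 63.01 to 122.1 in the livers, while Ddit3 is at 27.02 to 43.44 RPKM in the adult testes and 4.803 to 5.156 in the livers. The order of the livers, ovary and E18.5 testis differs between points and crosses.

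Over the 14 group means, the genes whose log2 CPM followed that of Hsp90b1 most closely among 10169 genes tested in all comparisons were Erp44 (Pearson's r 0.9803), Taok3 (0.976), Cfdp1 (0.9727), Snrpd3 (0.9713) and Psma4 (0.9708). For Ddit3 they were Ciz1 (0.9868), Pde4a (0.9868), Wdpcp (0.9863), Cpeb3 (0.9849) and D16Ertd472e (0.984). These correlations describe tissue differences over means that share tissues, and carry no test.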

How the data were processed

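RNA-Seq of 72 mouse libraries was deposited as 7 tables of raw read counts per gene symbol, which the authors made from KAPA stranded mRNA libraries. The submitters' processing notes name Trimmomatic 0.32, STAR 2.3.0e, featureCounts 1.5.0, DESeq2 and the mm10 genome. Low counts were even in 60.01% to 94.32% of values, as when both mates of a pair are counted, and halved counts were tried as an alternative. Groups followed the labels, and naturals and IVF were compared within each table with edgeR 4.0.16 (R 4.3.3, limma 3.58.1): TMM, filterByExpr, robust quasi-likelihood F test, two-sided, Benjamini-Hochberg adjustment over all genes tested, called under 0.05. DESeq2 1.42.0 (Wald test) was an alternative. The 10 genes, the wider list, the markers and the tests were chosen with earlier results of these data known. All 10 genes were named; of the wider list, the 3 called genes of smallest p in each direction per comparison, the germ-cell chaperones, the sensors and a set of known targets. GC content came from the longest GENCODE transcript of each gene, and the GC trend was removed per library by lowess (span 0.3). Promoters came from RefSeq on GRCm38.p6. The edgeR script was tested on simulated counts. The sire and litter of each F2 library are not given in the sources used here.

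Same-numbered libraries did not deviate together (correlations of deviations -0.226 to 0.301), so replicate numbers were not taken as pairs. The closest libraries (naturals 1 and 2 at 39 weeks, naturals 1 and 2 and IVF 3 and 4 in F2 testis) had a chi-square of 1.42 to 1.845 per degree of freedom on halved counts, against 3.456 to 31.84 for the other pairs of these groups. Whether they are repeat libraries of 1 animal cannot be told from the labels. The planned fit kept them separate, and a fit with each pair summed into 1 library, chosen after seeing the data, stands beside it. Totals ranged from 543745 to 90441392 counts, and Ddit3 in liver, at 8 to 10 counts in 2 libraries, had the least precision.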

Additional observations from a re-analysis of the deposited data

Results flagged for a closer look

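Of 140 groups of member values, 8 held a library far from the others of its group, about as many as chance gives at 1 in 20 groups. Natural 1 of E18.5 testis stood above its group for Canx (711.1 CPM, others 589 to 607.5) and Xbp1 (170.1 CPM, others 113.5 to 122.1). In 12-week F1 testis natural 3 was low for Ddit3 (37.75 CPM, others 44.42 to 46.18).

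In F2 male liver IVF 3, the shallowest library, was high for Calr (2767 CPM, others 1342 to 1638) and Ddit3 (19.28 CPM, others 3.308 to 6.219), and natural 1 was high for Xbp1 (259.6 CPM, others 180.3 to 195.3). In F2 female liver IVF 1 was low for Xbp1 (112.7 CPM, others 153.3 to 166.6) and IVF 2 high for Ddit3 (8.721 CPM, others 3.959 to 5.369).

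Canx moved in opposite directions in the livers, with all IVF libraries above all naturals in males and below them in females. The female difference minus the male one was -1.16 on the log2 scale, and this difference was not tested. With the GC trend removed the differences of Canx were 0.08 in males and -0.01 in females. Hsp90b1, Pdia3 and Atf4 also changed direction between the livers, with groups that overlapped in females. Of 121 wider genes tested, IVF lay wholly above naturals in 15 and below in 17 in male liver. In female liver these were 24 and 16 of 121.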

How the results depend on the processing

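Over the alternatives 1398 values of the 10 genes were recomputed: 1371 stayed on their side of the threshold (51 of these, all of values not called, changed sign), 20 no longer passed, 5 newly passed and 2 called values reversed, both Atf4 in female liver (-0.25 with the GC trend removed and -0.25 with the replicate block and the GC trend removed). In testis and ovary 0 of the 10 genes were called under every alternative run. In male liver, described without a test, the count of genes past the threshold (7) was 4 with the GC trend removed, 4 with the replicate block and GC removal and 7 to 8 without 1 library. With the mapping rate it was 5 (5 higher, 0 lower), and Canx (log2 difference 0.51) and Atf4 (-0.57) were no longer past it. In female liver (4 called) removal of the GC trend, the replicate block with it and the mapping rate left 0, 0 and 0, leaving out 1 library gave 4 to 5, and the replicate block alone gave 3 (Atf4 adjusted p = 0.0646 in edgeR). For the wider list, male liver (39, a description) gave 24 with the mapping rate and 32 to 42 without 1 library. Female liver (64) gave 32 with the GC trend removed, 25 with the replicate block and GC removal, 12 with the mapping rate and 52 to 69 without 1 library. Calls over all genes also fell with GC removal, block and GC removal, and the mapping rate. They went from 4124 to 2393, 1754 and 1484 in male liver, and from 6134 to 3303, 2057 and 1331 in female liver. At E18.5 (0) it gave 13 with DESeq2, 1 with no filter, 2 with at least 10 counts in every library and 0 to 4 without 1 library. At 12 weeks (1) it gave 0 for changes over 1.5-fold, 3 with DESeq2, 0 with the replicate block, 0 with the block and GC removal and 0 to 3 without 1 library. At 39 weeks (0) DESeq2 gave 1. In F2 testis (0) DESeq2 gave 2, GC removal 1, thinning to the smallest library 1, halved counts 1 and leaving out 1 library 0 to 2. In ovary (0) DESeq2 gave 2. Over all genes DESeq2 called 893, 419, 185, 745 and 154 at E18.5, 12 weeks, 39 weeks, F2 testis and ovary, where edgeR called 181, 150, 2, 345 and 0. The cause of these differences was not tested. Without a filter the median of all genes shifted to -0.257 in male and 0.198 in female liver. Of 140 levels per kilobase, 72 moved by more than 1 SD with plain library totals. Leaving out IVF 2 and IVF 3 in male liver, and summing close pairs, were chosen after seeing the data.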
